A study of Mus musculus with 18 samples.

Results

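The genes described here encode the proteins of the cytosolic ribosome, measured in endothelial cells sorted from the mouse cortex. Genes were chosen by symbol alone: Rpl or Rps followed by a digit, Rplp0 to Rplp2, and Rpsa, leaving out the Rps6 kinases, Rps19bp1 and symbols marked as pseudogenes. The rule found 85 of the 21638 genes in the table, 52 of the large and 33 of the small subunit. Of these, 84 reached 10 counts in 3 or more libraries and were tested. Rpl10l, a paralogue of Rpl10, did not pass.

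The study asked how cortical endothelial cells respond to ischaemic stroke and to endothelial deletion of Hdac2, a histone deacetylase, or Ezh2, the H3K27 methyltransferase of the Polycomb complex PRC2. Cells were gated on CD31 and against CD41 and CD45 on day 7 after middle cerebral artery occlusion (MCAO) or sham surgery, and 3 libraries were made per group. The 4 groups of genotype WT were sham ipsilateral, sham contralateral, MCAO ipsilateral and MCAO contralateral. The other 2 groups were MCAO ipsilateral cells of mice labelled Hdac2 ECKO and Ezh2 ECKO, for which floxed alleles were combined with Cdh5CreERT2, a tamoxifen-inducible recombinase driven by an endothelial promoter. The labels give tamoxifen at 75 mg/kg for every group, WT included, and the design text describes it as 5 doses from day 0 to day 4. They give no batch, and do not say whether replicates are separate mice, so the p-values below measure the spread between these libraries, which may be technical.

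A ribosome has a small 40S subunit, which reads the mRNA, and a large 60S subunit, which joins amino acids, and nearly every protein of either is present once per ribosome. Many ribosomal protein mRNAs begin with a cytosine followed by a run of pyrimidines, the 5′ terminal oligopyrimidine (TOP) motif, through which mTOR and Larp1 control their translation and stability. Rplp0, Rplp1 and Rplp2 form the P stalk, where elongation factors dock, and Rpl5 and Rpl11 bind 5S rRNA in a particle that can also inhibit Mdm2 and so stabilise p53. A few proteins have a paralogue encoded elsewhere in the genome, such as Rps27l for Rps27, Rpl22l1 for Rpl22 and Rpl7l1 for Rpl7. Endothelial cells that proliferate or sprout need new ribosomes.

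The starts of 6 of these genes show how far the TOP motif is shared among those on which the results turn. Each window runs from 10 bases before to 20 bases from the annotated RefSeq start on GRCm38.p6, written 5′ to 3′ on the gene's strand. Capitals mark the longest pyrimidine tract that begins inside the window, read from its first C, where it has at least 5 bases. A run that begins before the window, as at the left edge of Rps27l, is not counted.
Rpl7l1 (chr17:46782637-46782666, minus strand): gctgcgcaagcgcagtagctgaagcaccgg
Rplp0 (chr5:115559457-115559486, plus strand): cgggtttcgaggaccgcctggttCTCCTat
Rps27l (chr9:66946076-66946105, plus strand): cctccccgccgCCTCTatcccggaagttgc
Rpl22l1 (chr3:28805498-28805527, plus strand): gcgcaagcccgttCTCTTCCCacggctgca
Rps6 (chr4:86857348-86857377, minus strand): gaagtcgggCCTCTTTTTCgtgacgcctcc
Rpl38 (chr11:114668570-114668599, plus strand): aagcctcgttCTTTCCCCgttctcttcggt
Rps6, Rpl38 and Rpl22l1 carried tracts of at least 7 bases, those beginning in the Rplp0 and Rps27l windows had 5, and none of that length began in the Rpl7l1 window.

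RefSeq promoter sequence on GRCm38.p6, 250 bases before to 50 after the start, was matched by symbol for 65 of the 85 genes. Of these, 26 (40.0%) had a tract of at least 7 bases beginning within 10 bases before to 20 after the start, against 15.1% of the 27025 genes in that table. At least 5 bases were found in 42 (64.6%), against 38.7%. The heptamer CCGGAAG, the core of an ETS-family site, was found on either strand in 25 windows (38.5%), against 9.12% of all genes, and TATAAA on either strand in 6 (9.23%), against 14.2%. A tract and either motif were counted separately, so a window can hold several, and their letters may overlap. These matches describe the letters and are not measured binding sites.

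The ribosomal protein genes took between 2.03% and 5.33% of all counts per library, with a median of 3.79% over the 18 libraries. Library totals ran from 25791401 to 57576255 counts, so that even the lowest share had a 95% Wilson interval of 2.026% to 2.036%. This interval covers counting error only and takes every count as independent. It is too narrow if both mates of a pair were counted. The share was 3.36%, 2.03% and 3.98% in sham ipsilateral cells and 4.11%, 4.21% and 3.51% in sham contralateral cells. It was 3.42%, 3.24% and 4.73% in MCAO ipsilateral and 2.66%, 3.82% and 3.76% in MCAO contralateral cells. In the libraries labelled Hdac2 ECKO it was 5.28%, 4.79% and 3.16%, and in those labelled Ezh2 ECKO 5.33%, 2.47% and 5.03%. The ranges of all 6 groups overlapped.

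Within 4 groups a single library stood low. Levels are given as CPM, a gene's counts relative to library size after TMM scaling. As the median over the 84 genes of log2(CPM + 1) less the gene's mean over all libraries, sham ipsilateral replicate 2 lay at −1.22, Ezh2 ECKO replicate 2 at −1.13, MCAO contralateral replicate 1 at −0.79 and Hdac2 ECKO replicate 3 at −0.34. The other libraries of those groups lay between −0.39 and 1.02. Each of the 4 low libraries had the highest summed level of olfactory and vomeronasal receptor genes in its group, a measure of reads from genes that endothelium does not use: 716, 2083, 1889 and 639 CPM, against 152 to 600 CPM in the other libraries of these groups. Its part in the results was not tested beyond the values given below with these libraries left out or this level as a covariate.

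**Figure D1:**
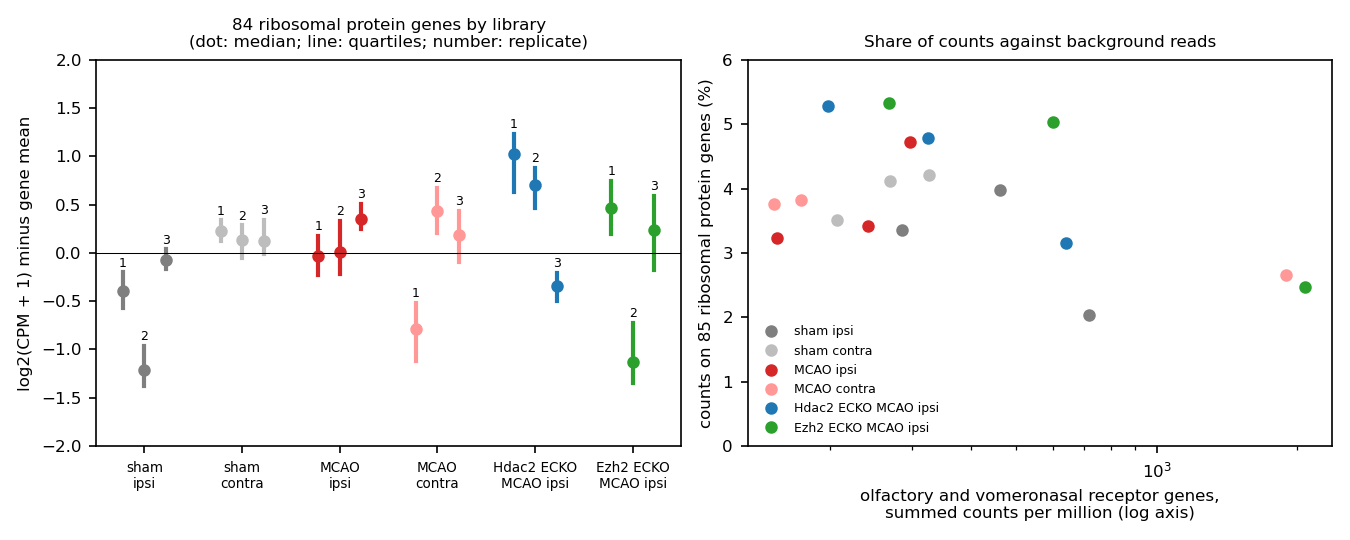
Left, log2(CPM + 1) less each gene's mean over 18 libraries, as the median (dot) and quartiles (line) of 84 ribosomal protein genes in each library, with replicate numbers. Right, the share of all counts on the 85 genes (%) against the summed level of olfactory and vomeronasal receptor genes (CPM, log axis). Sham ipsilateral replicate 2 (−1.22) and Ezh2 ECKO replicate 2 (−1.13) lie lowest on the left.

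The libraries carried the endothelial label in their transcripts: no defining endothelial marker was at 0, and the summed markers of microglia (38.3 to 94.4 CPM), astrocytes (33.1 to 93.6 CPM), neurons (50.9 to 291 CPM), oligodendrocytes (6.40 to 203 CPM) and pericytes (14.5 to 198 CPM) were small beside the endothelial sum, 14555 CPM or more. Red cell genes were not. They summed to 72028 to 129597 CPM in sham contralateral and 49334 to 297898 CPM in Hdac2 ECKO libraries, above the endothelial sums there (19714 to 34400 and 20555 to 26959 CPM). Their means also lay above the endothelial means in sham ipsilateral (42555 and 20369 CPM), MCAO ipsilateral (50387 and 35832 CPM) and MCAO contralateral cells (82706 and 30591 CPM). In libraries labelled Ezh2 ECKO they summed to 71.0 to 671 CPM. The deletions were not seen at the level of the whole gene. Hdac2 had 57.6, 85.0 and 87.9 CPM in libraries labelled Hdac2 ECKO and 84.4, 68.2 and 96.1 CPM in MCAO ipsilateral cells, overlapping ranges (log2 change −0.11, edgeR adjusted p = 0.925). Ezh2 had 12.0, 19.7 and 8.41 CPM in libraries labelled Ezh2 ECKO, all above the 4.45, 7.02 and 7.85 CPM of MCAO ipsilateral cells (log2 change 1.05 ± 0.86, SE, edgeR adjusted p = 0.485). Both genotypes are therefore given as labels throughout.

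Per kb of exon the most abundant genes were Rpl38 (3239 CPM per kb, mean of all libraries), Rps27l (1537 CPM per kb) and Rpl41 (1131 CPM per kb). The least abundant were all paralogues known for expression in testis or striated muscle: Rpl10l (0.055 CPM per kb), Rpl3l (0.113 CPM per kb) and Rpl39l (5.13 CPM per kb). Rpl3l was at or under 1.71 CPM in every library and at 0 in several, and no fold change is given for it. Rps27l, a p53-responsive gene in other cells, was thus among the most abundant ribosomal protein mRNAs of these endothelial cells. As group means it was 1.07 to 3.01 times as abundant per kb as Rps27 by the counts assigned to Rps27. Those counts are uncertain, because the coding sequence of Rps27 is identical to that of a copy, Rps27rt. Rps27rt itself lay at 0.74 to 0.81 times Rps27 per kb as group means.

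On the occluded side ribosomal protein genes were higher after MCAO than after sham surgery almost without exception, but none passed the test. Of the 84 genes, 82 had a higher mean on the fitted scale, against 45.9% of all 17094 genes, and their median log2 change was 0.61, against −0.09 over all genes. In 37 of the 84 all MCAO libraries lay above all sham libraries, against 13.3% of all genes. No gene was called by edgeR's quasi-likelihood test at an adjusted p under 0.05 (0 of 84, and 0% of all genes), 7 had an unadjusted p under 0.05, all higher, against 7.08% of all genes in either direction, and DESeq2 called 0 (0.404% of all genes). The smallest adjusted p among them was 0.490. Cell markers moved with this comparison too: from sham to MCAO ipsilateral cells the endothelial sum went from 19352 to 21068 CPM to 28331 to 41496 CPM, the microglial sum from 38.3 to 45.3 CPM to 87.3 to 94.4 CPM, and the pericyte sum from 105 to 162 CPM to 38.1 to 103 CPM, all without overlap. Much of the endothelial sum lay on 2 genes, Ly6c1 (means of 5767 CPM in sham and 14514 CPM in MCAO ipsilateral cells) and Ly6a (4129 and 11021 CPM). Of the 14 endothelial markers 8 had higher means, and 4 higher and 2 lower had an unadjusted p under 0.05. The part of all these markers in the result was not tested.

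Rpl7l1, whose product works in the nucleolus on pre-rRNA, led this comparison. Its level was 44.7, 37.8 and 39.6 CPM in sham ipsilateral cells and 90.3, 165 and 76.9 CPM in MCAO ipsilateral cells. Every MCAO library lay above every sham library, with a log2 change of 1.45 ± 0.38 (SE, n = 3 and 3, edgeR adjusted p = 0.490). Rpsa, a 40S protein also known as a laminin receptor, had 131, 69.7 and 108 CPM after sham surgery and 177, 203 and 217 CPM after MCAO. Those groups did not overlap either (log2 change 0.95 ± 0.40, edgeR adjusted p = 0.648). Rps6, the 40S protein phosphorylated by S6 kinase, had 510, 312 and 566 CPM in sham and 825, 869 and 890 CPM in MCAO ipsilateral libraries, again without overlap.

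The exceptions were Rpl26, at a log2 change of −0.09, and Rps27l, at −0.01. Rpl26 is a 60S protein near the exit of the peptide tunnel and had 520, 354 and 854 CPM in sham and 452, 316 and 857 CPM in MCAO ipsilateral cells, fully overlapping. Genes of the 60S and 40S subunits moved alike, with medians of 0.60 and 0.64. Without sham ipsilateral replicate 2, the low library, the median was 0.36, without sham ipsilateral replicate 3 it was 0.90, and with the receptor background as a covariate it was 0.23.

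The 2 hemispheres of sham mice also differed in these genes, and the sham ipsilateral libraries are shared with the comparison above. Sham ipsilateral cells had lower levels than sham contralateral cells for 83 of 84 genes (higher in 1, against 54.8% of all genes), with a median log2 difference of −0.68 against 0.07 over all genes. In 50 genes every ipsilateral library lay below every contralateral one, against 6.98% of all genes. Rps27a, made as a fusion with ubiquitin, had 323, 337 and 488 CPM on the ipsilateral and 623, 865 and 597 CPM on the contralateral side (log2 difference −0.86 ± 0.36, edgeR adjusted p = 1.00). Rpl22l1 had 120, 172 and 179 CPM against 243, 400 and 203 CPM (−0.84 ± 0.34), with no overlap between sides for either gene. None of the 84 was called by edgeR (0% of all genes), 3 had an unadjusted p under 0.05, all lower (against 1.85% of all genes), and DESeq2 called 0 (0.0351% of all genes). The median was −0.43 without sham ipsilateral replicate 2. Red cell genes summed to 19225 to 59007 CPM ipsilaterally and 72028 to 129597 CPM contralaterally, and neuron markers to 59.6 to 117 CPM and 136 to 195 CPM, without overlap, and their part was not tested.

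On the other side of the brain the picture differed. MCAO contralateral cells had higher means than sham contralateral cells for 19 of 84 genes, against 59.3% of all genes, with a median of −0.16 against 0.17. None was called by edgeR (0% of all genes), 0 had an unadjusted p under 0.05 (against 4.41% of all genes) and DESeq2 called 0 (0.152% of all genes). Rpl38, a 60S protein tied in mouse development to the translation of Hox mRNAs, had 1594, 2373 and 1458 CPM after sham surgery and 619, 1111 and 1168 CPM after MCAO, a difference of −0.90 on the log2 scale with no overlap. Without MCAO contralateral replicate 1, the low library of that group, the median over the genes was 0.17, so its sign rests on that library.

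The MCAO effect was larger ipsilaterally than contralaterally for all 84 genes tested, by a median of 0.77 on the log2 scale, whereas 8003 of 17094 genes shared that direction (median −0.08). No difference between the sides was called in this interaction test of edgeR, 0 of 84 had an unadjusted p under 0.05, and 578 of all genes did. DESeq2 was not run on the interaction, which was also not refitted with libraries left out. The interaction equals the side difference in MCAO cells less that in sham cells, whose medians were 0.11 and −0.68. Sham ipsilateral replicate 2, the low library, enters it through the sham difference, the larger of the 2. Between the hemispheres of MCAO mice, 69 of 84 genes were higher ipsilaterally (46.2% of all genes), with a median of 0.11. None was called by edgeR (0% of all genes), 0 had an unadjusted p under 0.05 (3.08% of all genes) and DESeq2 called 0 (0.0351% of all genes). With the background covariate the median of this side difference was −0.05, and without MCAO contralateral replicate 1 it was −0.19.

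Over both sides together, 75 of 84 genes were higher after MCAO (54.2% of all genes), with a median of 0.23 against 0.06. Without sham ipsilateral replicate 2 the median was 0.09 against 0.09 over all genes (60 of 84 higher), and with the background covariate 0.08 against −0.11. No ribosomal protein gene was called by edgeR, while 0.152% of all genes were, and 1 had an unadjusted p under 0.05 (9.09% of all genes). That gene was Rpl7l1, at 64.9, 44.9 and 94.5 CPM in sham contralateral and 77.6, 135 and 117 CPM in MCAO contralateral cells. Its log2 change over both sides was 1.07 ± 0.27 (edgeR adjusted p = 0.122), and DESeq2, which called this gene alone among the 84 (1.97% of all genes), gave an adjusted p of 0.0119. In edgeR it also passed without MCAO contralateral replicate 1 (adjusted p = 0.0277), and over all alternatives its adjusted p ran from 0.0119 to 0.443.

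**Figure D2:**
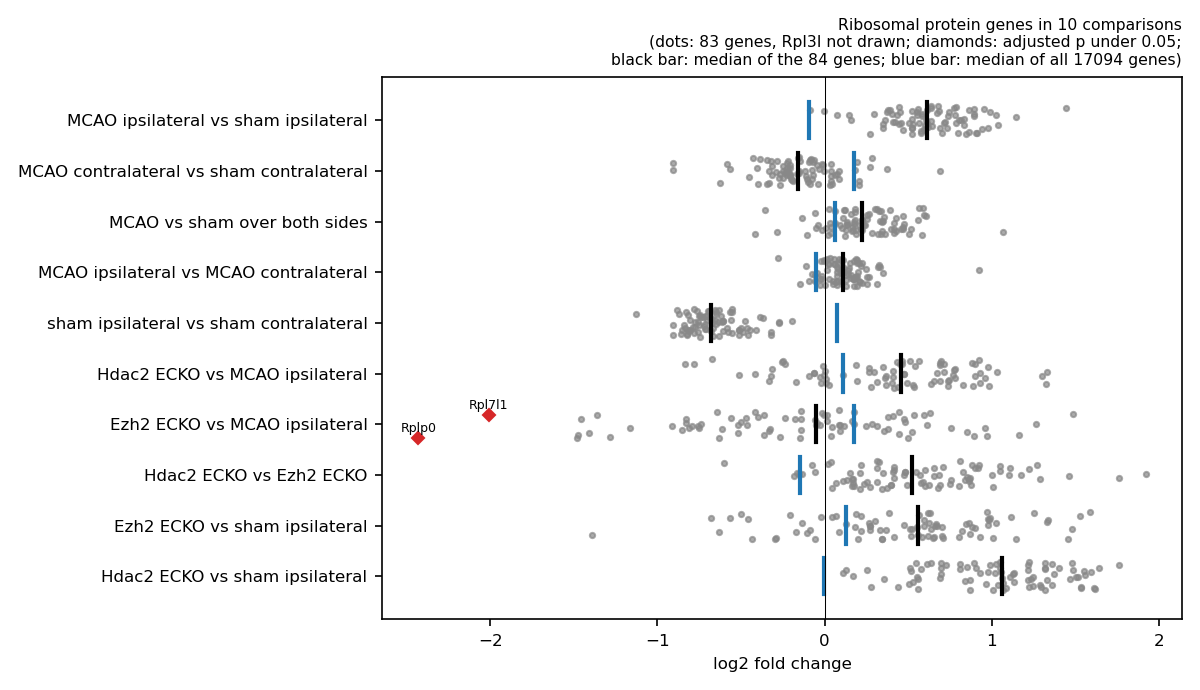
Log2 fold changes of 83 ribosomal protein genes (dots, Rpl3l not drawn) in 10 comparisons, with the median of the 84 tested genes (black bar) and of all 17094 genes (blue bar). The genes lie above 0 in MCAO ipsilateral against sham ipsilateral (median 0.61) and below 0 in sham ipsilateral against sham contralateral (−0.68), and the only called genes (diamonds) are Rplp0 and Rpl7l1 in Ezh2 ECKO against MCAO ipsilateral.

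In the libraries labelled Hdac2 ECKO most ribosomal protein genes had higher means than in MCAO ipsilateral cells of genotype WT. Of 84 genes, 65 were higher (54.8% of all genes), with a median log2 change of 0.46 against 0.11 over all genes. None was called by edgeR (0.0117% of all genes were), 12 had an unadjusted p under 0.05 for a higher and 1 for a lower level (9.85% of all genes in either direction), and DESeq2 called 1, Rpl22l1 (1.43% of all genes). The 3 libraries were not alike: 82 of 84 genes lay above their own mean over the 18 libraries in replicates 1 and 2, and 4 of 84 in replicate 3. The median was 0.14 without Hdac2 ECKO replicate 1 and 0.77 without replicate 3. Globin genes, a sign of red cells, took 19.9%, 19.5% and 5.41% of counts in these libraries and 3.78% to 5.78% in MCAO ipsilateral cells, and their part in the difference was not tested.

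Rpl22l1, the paralogue of the RNA-binding 60S protein Rpl22, had 596, 488 and 335 CPM in libraries labelled Hdac2 ECKO and 175, 149 and 253 CPM in MCAO ipsilateral cells. All Hdac2 ECKO libraries lay above all MCAO libraries, replicate 3 included, with a log2 change of 1.30 ± 0.35 (SE, edgeR adjusted p = 0.283 and 0.0255 in DESeq2, from 0.0255 to 0.997 over all alternatives). Rps27l had 2749, 1764 and 962 CPM against 686, 596 and 907 CPM, likewise without overlap (1.32 ± 0.42, edgeR adjusted p = 0.394). Rpl38 had 4672, 2605 and 1253 CPM against 868, 814 and 1706 CPM, with replicate 3 inside the MCAO range (1.33 ± 0.51, edgeR adjusted p = 0.429). Rpl7l1 lay on the other side: 51.7, 74.5 and 60.3 CPM against 90.3, 165 and 76.9 CPM, all below (−0.83 ± 0.38, edgeR adjusted p = 0.489).

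In the libraries labelled Ezh2 ECKO the ribosomal protein genes split. Rplp0 and Rpl7l1 fell against MCAO ipsilateral cells, 37 of 84 genes had higher and 47 lower means (55.4% of all genes were higher), and the median log2 change was −0.05 against 0.17 over all genes. The 2 called genes compare with 1.46% of all genes called (39 higher and 211 lower), and 7 higher and 9 lower genes had an unadjusted p under 0.05, against 19.2% of all genes in either direction. In 19 genes every library labelled Ezh2 ECKO lay below every MCAO ipsilateral library, against 15.3% of all genes. In 1, Rpl22l1, every one lay above, against 2328 of all 17094 genes. The sign of the median is not settled: it was 0.47 with the background covariate, 0.27 without Ezh2 ECKO replicate 2, −0.41 without replicate 1, and 0.31 without the 2 libraries of highest background. DESeq2's size factors (RLE) in place of TMM moved the median of all genes from 0.17 to 0.36 and the 2 calls to 4, of which Rps27l and Rpl22l1 were higher.

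Rplp0, the scaffold of the P stalk (chr5:115559467-115563727, plus strand), had 121, 66.9 and 56.3 CPM in libraries labelled Ezh2 ECKO and 439, 603 and 275 CPM in MCAO ipsilateral cells. The highest Ezh2 ECKO library was below the lowest MCAO library, and the log2 change was −2.43 ± 0.59 (SE, n = 3 and 3, edgeR adjusted p = 0.0434). Sham ipsilateral cells had 279, 135 and 229 CPM, also above all libraries labelled Ezh2 ECKO, and sham contralateral cells 394, 183 and 482 CPM. MCAO contralateral replicate 1 had 85.0 CPM beside 662 and 379 CPM in that group, so a low value also occurred in a WT library. Over the alternatives tried, the log2 change of Rplp0 ran from −2.83 to −1.29 and its adjusted p from 0.00316 to 0.223. The call was lost, among others, with a background covariate (log2 change −1.29, adjusted p = 0.200), with trends on G + C or length removed (0.0954 and 0.110), without MCAO ipsilateral replicate 1 or 2 (0.105 and 0.223), and without Ezh2 ECKO replicate 1, 2 or 3 (0.0526, 0.117 and 0.150).

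The partners of Rplp0 in the stalk were not called. Rplp1 had 388, 410 and 548 CPM in MCAO ipsilateral libraries and 795, 191 and 534 CPM in those labelled Ezh2 ECKO, on both sides of the MCAO range. Rplp2 had 267, 324 and 349 CPM against 343, 115 and 224 CPM, also overlapping. Both acidic proteins were highest in Hdac2 ECKO replicate 1, at 1263 and 599 CPM. The 5S particle overlapped too: Rpl5 had 449, 476 and 513 CPM in MCAO ipsilateral cells and 617, 398 and 824 CPM in those labelled Ezh2 ECKO, and Rpl11 had 323, 305 and 410 CPM against 635, 150 and 377 CPM. None of these 4 genes was called in any of the 10 comparisons by edgeR.

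Rpl7l1 (chr17:46773907-46782672, minus strand) had 28.3, 36.5 and 17.8 CPM in the libraries labelled Ezh2 ECKO, below each of the 90.3, 165 and 76.9 CPM of MCAO ipsilateral cells. The log2 change was −2.01 ± 0.39 (SE, n = 3 and 3, edgeR adjusted p = 0.0290). All Ezh2 ECKO libraries were also below all sham ipsilateral libraries, 37.8 to 44.7 CPM, though that difference was not called (−0.56). The comparisons of Rpl7l1 with sham and with Ezh2 ECKO libraries share the same MCAO ipsilateral libraries, in which it was at its highest. Across the alternatives the log2 change against MCAO ran from −2.29 to −1.60 and the adjusted p from 0.000695 to 0.171. The call was lost, among others, with a background covariate (adjusted p = 0.0976) and without MCAO ipsilateral replicate 1, MCAO ipsilateral replicate 2 or Ezh2 ECKO replicate 3 (0.0632, 0.171 and 0.100).

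At the other end lay paralogues and small proteins. Rps27l (chr9:66946086-66949516, plus strand) had 2699, 883 and 2553 CPM in libraries labelled Ezh2 ECKO and 686, 596 and 907 CPM in MCAO ipsilateral cells, with replicate 2 inside the MCAO range (log2 change 1.49 ± 0.43, edgeR adjusted p = 0.0708, and 0.00891 to 0.334 over the alternatives). Rpl22l1 (chr3:28805436-28807424, plus strand) had 481, 267 and 545 CPM against 175, 149 and 253 CPM, without overlap (1.16, edgeR adjusted p = 0.0798). DESeq2 called 5 genes (9.61% of all genes): Rpl7l1 and Rplp0 lower, and Rps27l, Rpl22l1 and Rps27a higher. Rps24, a small-subunit protein with known alternative 3′ exons, had 938, 728 and 1686 CPM against 474, 450 and 783 CPM, overlapping through replicate 2.

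Rpsa ran opposite to Rps27l, with 131, 45.7 and 90.4 CPM in libraries labelled Ezh2 ECKO, all below the 177, 203 and 217 CPM of MCAO ipsilateral cells (−1.16 ± 0.40, edgeR adjusted p = 0.128). Rps6 had 673, 249 and 507 CPM against 825, 869 and 890 CPM, also all below (−0.86 ± 0.42, edgeR adjusted p = 0.267). Rps2, a 40S protein at the mRNA entry side picked here after its values were seen, had 101, 61.1 and 97.1 CPM against 213, 285 and 190 CPM. Rps4x, the X-linked small-subunit protein, had 503, 245 and 546 CPM against 372, 357 and 488 CPM, on both sides of the MCAO range. Fau and Rack1, ribosomal proteins outside the symbol rule, were not called: Fau, fused to a ubiquitin-like protein, had a log2 change of −0.87, and Rack1, the scaffold on the 40S head, −0.37.

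Summed cell markers also moved with this comparison. The summed endothelial markers were 14555 to 19109 CPM in libraries labelled Ezh2 ECKO and 28331 to 41496 CPM in MCAO ipsilateral cells, and red cell genes 71.0 to 671 CPM against 38268 to 65450 CPM. Much of the endothelial sum lay on the 2 markers called lower by edgeR. As means of MCAO ipsilateral and Ezh2 ECKO libraries, Ly6c1 had 14514 and 3550 CPM and Ly6a 11021 and 2959 CPM. Of the 14 endothelial markers 6 had higher means, and 3 higher and 7 lower had an unadjusted p under 0.05. The part of all these markers in the changes of ribosomal protein genes was not tested. In sorted bulk cells, fewer cells of a type and less RNA per cell cannot be told apart.

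**Figure D3:**
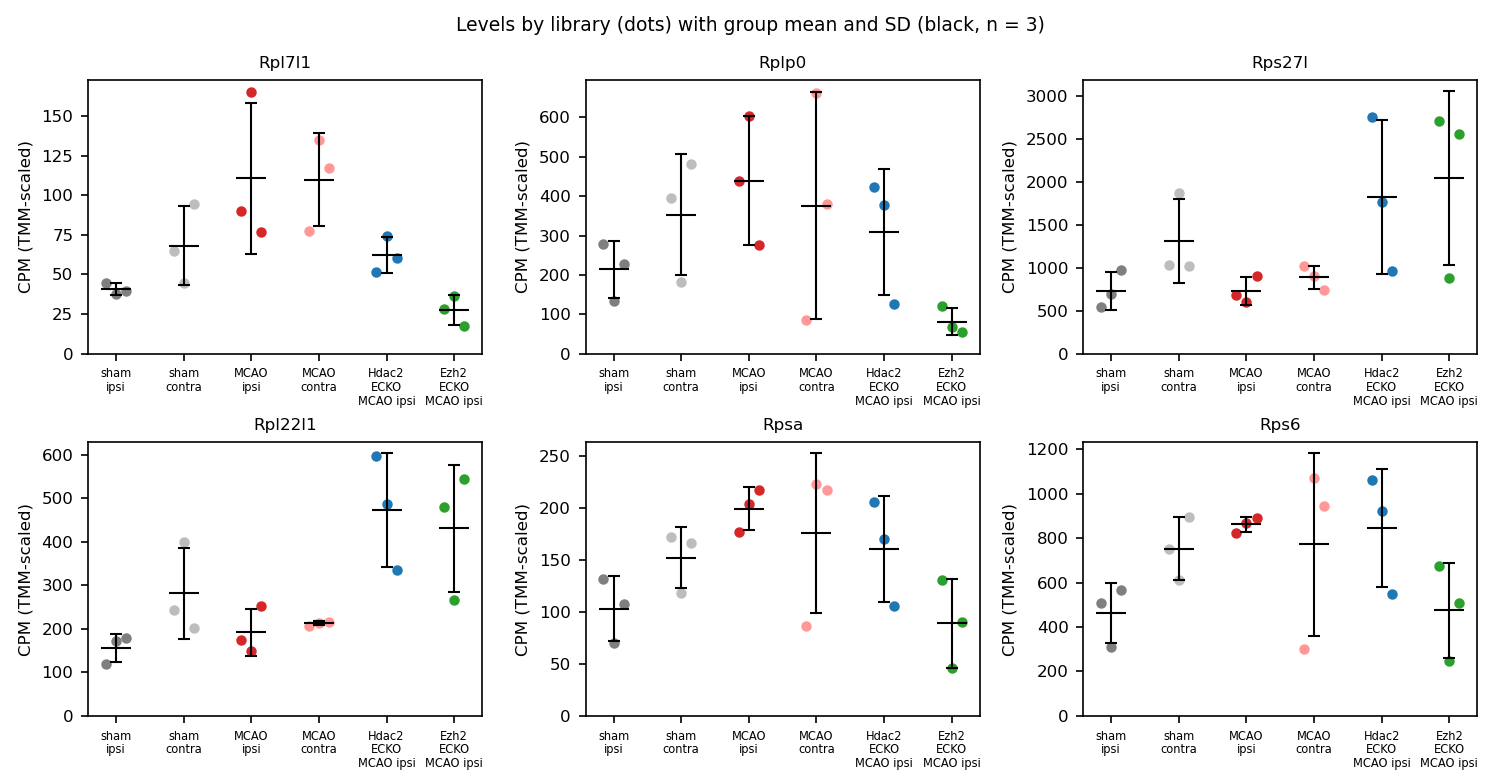
CPM of 6 ribosomal protein genes in each library (dots) with the group mean and SD (black, n = 3). The libraries labelled Ezh2 ECKO lie lowest for Rpl7l1 (17.8 to 36.5 CPM). For Rplp0 they lie at 56.3 to 121 CPM, a range that also holds MCAO contralateral replicate 1. The Hdac2 and Ezh2 ECKO groups both lie above MCAO ipsilateral cells for Rpl22l1.

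Against the sham ipsilateral group, whose libraries the comparisons below share, both labelled groups showed higher ribosomal protein genes. They differ from sham by occlusion as well as by label. MCAO ipsilateral cells of genotype WT, against the same sham libraries, had 82 of 84 genes higher and a median of 0.61. In the libraries labelled Hdac2 ECKO all 84 tested genes had higher means (49.7% of all genes), with a median log2 change of 1.06 against −0.005. None was called by edgeR (0% of all genes), 51 had an unadjusted p under 0.05, all higher (7.14% of all genes), and DESeq2 called 8 (1.44% of all genes). Rpl22l1 came first, with a log2 change of 1.59 ± 0.35 (edgeR adjusted p = 0.151), followed by Rps27a at 1.36 ± 0.36 (edgeR adjusted p = 0.318). Rps27a had 1228, 1113 and 604 CPM against 323, 337 and 488 CPM, with no overlap. The least changed was Rpl7a, at 0.11. The median lay between 0.73 and 1.39 when single libraries were left out and was 0.80 with the background covariate.

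For the libraries labelled Ezh2 ECKO, 68 of 84 genes had higher means than sham ipsilateral cells (56.1% of all genes), with a median of 0.56 against 0.13. None was called by edgeR (0.0410% of all genes), 20 higher and 1 lower had an unadjusted p under 0.05 (6.52% of all genes), and DESeq2 called 4, Rps15a, Rps27a, Rps27l and Rpl22l1, all higher (1.11% of all genes). Rps15a, a small-subunit protein, had 581, 287 and 761 CPM against 178, 129 and 257 CPM, without overlap (1.53 ± 0.41, edgeR adjusted p = 0.399). Rplp0 was the gene lowest against the rest, at −1.39 ± 0.57 (edgeR adjusted p = 0.673). Without Ezh2 ECKO replicate 1 the median was 0.18, and without replicate 2 it was 0.88.

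Set directly against each other, the libraries labelled Hdac2 ECKO had higher means than those labelled Ezh2 ECKO for 77 of 84 genes (44.4% of all genes), with a median of 0.52 against −0.15. None was called by edgeR (0.123% of all genes), 14 had an unadjusted p under 0.05, all higher (11.2% of all genes), and DESeq2 called 2, Rplp0 among them (3.86% of all genes). Rplp0 had 423, 378 and 125 CPM against 121, 66.9 and 56.3 CPM, just without overlap (1.92 ± 0.58, edgeR adjusted p = 0.205). Without Hdac2 ECKO replicate 1, or without Ezh2 ECKO replicate 2, the median over the genes was 0.17, and without Ezh2 ECKO replicate 1 it was 0.86. With the background covariate it was 0.10 against 0.08 over all genes, with 56 of 84 higher.

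The genes that were low and high in the libraries labelled Ezh2 ECKO tended to differ in base composition. The coding G + C of the 85 genes ran from 39.9% (Rpl22l1) to 61.6%, with a median of 52.6%. In Ezh2 ECKO against MCAO ipsilateral, 26 of the 42 genes of lower G + C were higher, with a median of 0.21, and 11 of the 42 of upper G + C, with a median of −0.43. Unadjusted p-values under 0.05 divided as 7 higher and 1 lower among the genes of lower G + C, and as 0 higher and 8 lower among the others. That 1 lower gene was Rpl7l1, called at a log2 change of −2.01, which ran against the relation. Rplp0, the other called gene, was of upper G + C. Across the 84 genes Spearman's rho between G + C and log2 change was −0.58, and across 16945 of all genes −0.41. Genes of a library share its depth and amplification and are not independent replicates.

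The first 90 coding bases of a gene from each end, from GENCODE M21 transcripts with G and C in capitals, show the contrast.
Rps2: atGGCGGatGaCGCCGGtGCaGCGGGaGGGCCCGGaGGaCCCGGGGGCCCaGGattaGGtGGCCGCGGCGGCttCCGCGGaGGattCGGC
Rpl22l1: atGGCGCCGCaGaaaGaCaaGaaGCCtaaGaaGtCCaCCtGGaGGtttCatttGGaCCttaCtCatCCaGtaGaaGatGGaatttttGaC
Rps2 held 75.6% G + C in this stretch (58.4% over its coding sequence) and lay at a log2 change of −1.41 in Ezh2 ECKO against MCAO ipsilateral. Rpl22l1 held 45.6% (39.9% over its coding sequence) and lay at 1.16.

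The same relation had other signs elsewhere. In Hdac2 ECKO against Ezh2 ECKO it was 0.70 (0.27 over all genes), in Ezh2 ECKO against sham ipsilateral −0.55 (−0.34), in MCAO against sham ipsilaterally 0.38 (0.29) and contralaterally 0.57 (−0.13), in Hdac2 ECKO against MCAO −0.15 (−0.30) and against sham ipsilateral 0.01 (−0.01). These comparisons share groups. Library by library, rho between G + C and the gene's deviation was 0.389 to 0.425 in the 3 MCAO ipsilateral libraries, and −0.436, −0.587 and −0.657 in those labelled Ezh2 ECKO. In the other groups the libraries differed in sign: 0.38, −0.48 and 0.22 in sham ipsilateral, for example. With each library's trend on G + C over all genes removed, the relation in Ezh2 ECKO against MCAO was −0.05, Rpl7l1 was the single gene called there and Rplp0 was not, at a log2 change of −1.99 (adjusted p = 0.0954).

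**Figure D4:**
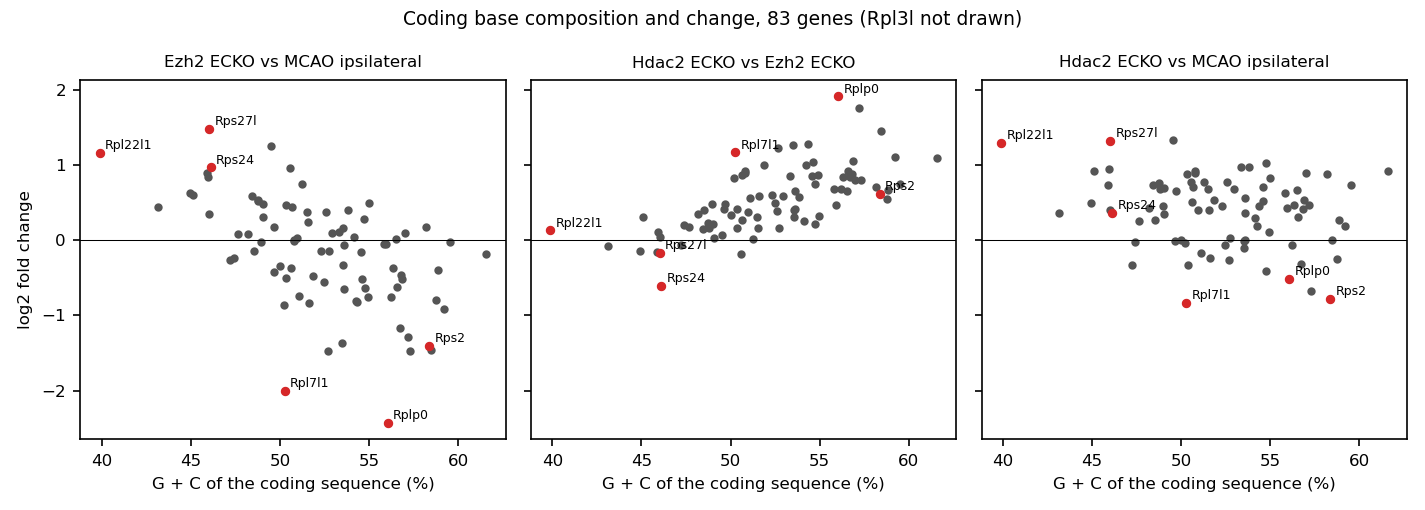
Log2 fold change against G + C of the coding sequence (%) for 83 ribosomal protein genes (Rpl3l not drawn) in 3 comparisons, with genes named in the text in red. The change falls with G + C in Ezh2 ECKO against MCAO ipsilateral (rho −0.58), rises in Hdac2 ECKO against Ezh2 ECKO (0.70), and shows little slope in Hdac2 ECKO against MCAO ipsilateral (−0.15).

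Paralogue pairs compare a gene with its counterpart inside the same library. The first 90 coding bases of Rps27l and Rps27 show that reads can tell them apart, with capitals at the positions where the pair differ.
Rps27l: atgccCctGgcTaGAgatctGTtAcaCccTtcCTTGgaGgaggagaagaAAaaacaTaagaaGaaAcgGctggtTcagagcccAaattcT
Rps27: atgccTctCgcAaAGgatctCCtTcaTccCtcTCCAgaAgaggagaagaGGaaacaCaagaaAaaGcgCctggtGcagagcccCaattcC
Over 252 coding bases the pair differed at 60 (identity 76.2%). Rps27rt, a retrotransposed copy, did not differ from Rps27 at any of 252, so counts of Rps27rt and Rps27, and ratios to Rps27, are uncertain. Identity was 59.8% for Rpl7l1 and Rpl7, 70.2% for Rpl22l1 and Rpl22, 74.3% for Rpl3l and Rpl3, 84.7% for Rpl10l and Rpl10, 85.0% for Rpl39l and Rpl39, and 87.7% for Rpl36al and Rpl36a.

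Per kb, the ratio of Rps27l to Rps27 was 1.07 ± 0.07 (SD, n = 3) in MCAO ipsilateral cells, 1.44 ± 0.17 in the libraries labelled Hdac2 ECKO and 3.01 ± 0.28 in those labelled Ezh2 ECKO. In sham ipsilateral cells it was 1.91 ± 0.84, in sham contralateral 1.84 ± 0.64 and in MCAO contralateral cells 1.41 ± 0.65. The Ezh2 ECKO ratio did not overlap that of MCAO ipsilateral cells, by 1.48 on the log2 scale, nor that of the libraries labelled Hdac2 ECKO, whose log2 ratio differed from it by −1.06. It did overlap sham ipsilateral cells, where replicate 2 had a ratio of 2.85. In Ezh2 ECKO replicate 2, where the levels of Rps27l and Rps27 were 883 and 378 CPM, the ratio was 2.98, inside the range of the other 2 libraries. A two-sided exact permutation test gave p = 0.1 for each, the smallest p that 3 against 3 libraries allow, and 0.3 after adjustment over 24 tests (6 pairs by 4 comparisons), so this test cannot reach 0.05 here.

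The ratio of Rpl22l1 to Rpl22 was 1.31 ± 0.20 in MCAO ipsilateral cells, 1.94 ± 0.10 in the libraries labelled Hdac2 ECKO and 2.06 ± 0.37 in those labelled Ezh2 ECKO. Neither of the labelled groups overlapped MCAO cells, by 0.58 and 0.66 on the log2 scale (exact permutation p = 0.1 for each, adjusted 0.3). It was 1.48 ± 0.53 and 1.62 ± 0.37 in the ipsilateral and contralateral sham groups and 1.58 ± 0.20 in MCAO contralateral cells, and sham libraries reached 2.09 and 2.04, overlapping both labelled groups. Rpl7l1 was a small fraction of Rpl7 throughout, at 0.122 ± 0.059 in MCAO ipsilateral and 0.048 ± 0.043 in Ezh2 ECKO libraries, which overlapped (exact permutation p = 0.2). Rpl36al exceeded Rpl36a in every group mean, from 1.34 in the libraries labelled Ezh2 ECKO to 1.89 in sham contralateral cells.

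**Figure D5:**
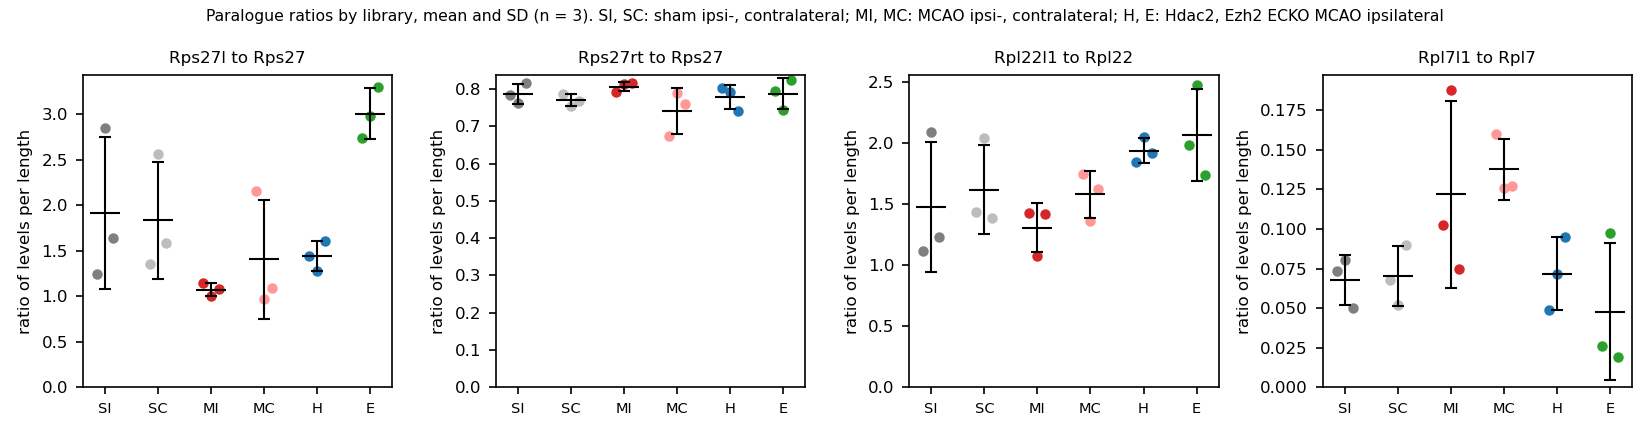
Ratio of the level per kb of a paralogue to that of its counterpart in each library (dots), with the group mean and SD (black, n = 3). Rps27l to Rps27 is 3.01 ± 0.28 in the libraries labelled Ezh2 ECKO and 1.07 ± 0.07 in MCAO ipsilateral cells. Rps27rt to Rps27 stays between 0.74 and 0.81 as group means. The coding sequences of Rps27rt and Rps27 are identical, so ratios to Rps27 are uncertain.

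Changes were also set beside the start-site letters, with no test of the differences. The 26 tested genes with a pyrimidine tract of at least 7 bases had a median log2 change of 0.66 in MCAO against sham ipsilaterally, and the 38 without it 0.61. In Hdac2 ECKO against sham ipsilateral the medians were 1.13 and 0.99, and in Ezh2 ECKO against MCAO ipsilateral −0.02 and −0.14. In Hdac2 ECKO against Ezh2 ECKO they were 0.61 and 0.48, and in Hdac2 ECKO against MCAO ipsilateral 0.53 and 0.40. Genes with and without CCGGAAG (25 and 39) had medians of 0.64 and 0.61 in MCAO against sham ipsilaterally. In Ezh2 ECKO against MCAO ipsilateral their medians were −0.05 and −0.03.

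Genes that make, regulate or work with ribosomes were followed as lists. Mitochondrial ribosomal proteins, which build the separate ribosome of that organelle, had higher means after MCAO than after sham ipsilaterally in 74 of 78 cases (median 0.58), and translation factors and other TOP mRNAs in 14 of 19 (median 0.52). Ribosome biogenesis factors were higher in 31 of 39 (median 0.35), and mTOR, S6 kinase and Larp1 pathway genes in 11 of 22 (median −0.13). None of these was called by edgeR, and 4, 0, 4 and 4 genes of these lists, all higher, had an unadjusted p under 0.05. Over all genes 45.9% were higher and 7.08% had such a p in either direction. In Ezh2 ECKO against MCAO ipsilateral the mitochondrial list had 14 of 78 higher, with a median of −0.64 and 1 called gene, Mrpl4, lower by edgeR (−2.62 ± 0.61, adjusted p = 0.0385). The biogenesis list had 10 of 39 higher, with a median of −0.46 and 1 called gene, Rcl1, which acts in 18S rRNA maturation (−4.49 ± 1.06, adjusted p = 0.0402, 0.343 CPM against 7.78 CPM). Over all genes 1.46% were called here and 55.4% were higher, so 1 of 78 is near the share of all genes.

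The list of p53 and ribosomal stress genes held 10, among them Cdkn1a, the cyclin-dependent kinase inhibitor p21 and a p53 target. Its mean was 219 ± 185 CPM (SD, n = 3) in MCAO ipsilateral cells, uneven between libraries, and 25.4 ± 9.0 CPM in the libraries labelled Ezh2 ECKO. It was 54.8 ± 18.6 CPM in sham ipsilateral, 52.7 ± 13.9 CPM in sham contralateral and 160 ± 149 CPM in MCAO contralateral cells. Cdkn1a was called lower in Ezh2 ECKO against MCAO ipsilateral (−3.11 ± 0.64, SE, edgeR adjusted p = 0.0291). Rps27l, also known as a p53 target, was at 1.49 in that comparison, the opposite sign. The 19 translation factor genes had 8 higher and a median of −0.38, with 1 higher and 7 lower at an unadjusted p under 0.05. The 22 mTOR pathway genes had 9 higher and a median of −0.25, with 2 higher and 2 lower at that level, and the 9 Myc network genes had 4 higher, with 1 each way. None of these 3 lists had a gene called by edgeR. Over all genes 19.2% had such a p in this comparison, near the shares of the mTOR and Myc lists.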

How the data were processed

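Endothelial cells of 18 samples in 6 groups of 3 were profiled with a SMART-Seq v4 PLUS kit and read in pairs on a NovaSeq X Plus, per the labels' protocols. The submitters' processing notes name FastQC, cutadapt, STAR, featureCounts, DESeq2 and mm10, without versions or roles. The deposited values are whole counts per gene. The name of the authors' table calls them normalized, but totals differ between libraries and 77.3% to 89.4% of the counts from 1 to 20 were even, as when both mates of a pair are counted without scaling, so they were used as raw counts. A total of 0 columns had no sample.

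The 17094 genes that reached 10 counts in 3 or more libraries entered 1 fit of 6 group means to all 18 libraries with edgeR 4.0.16 (R 4.3.3), TMM scaling and the quasi-likelihood F-test. Adjusted p-values are Benjamini-Hochberg values over all 17094 genes, called under 0.05. The common biological coefficient of variation was 0.774. A standard error (SE) is the size of the log2 fold change divided by the root of its F statistic. Paralogue ratios were tested with two-sided exact permutation tests. Coordinates are on GRCm38, to which 21442 genes matched in GENCODE M21, and sequences come from RefSeq (GRCm38.p6) and GENCODE, read with Biopython 1.88. The scripts were tested on simulated data.

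Members and lists were chosen with earlier results of these data known. Genes were named by rule: Hdac2 and Ezh2, the paralogues, P stalk and 5S particle, Rpsa, Rps6, Rps27a, Rps4x, Fau, Rack1, the 3 highest and 3 lowest per length, up to 5 called genes per direction and comparison or else the 2 of smallest p, the genes farthest from the median, and up to 3 called genes of each list. Some genes that the rule reaches are not reported here. Rps2 and Rps24 were named after their values were seen, except where the rule reached them. The paralogue list holds 9 genes, of which Rps4l was not analysed here. Alternatives were RLE and upper-quartile factors, TMM without the members, other count minimums, halved counts, a replicate block, a background covariate, only the groups compared, DESeq2 1.42.0 and leaving out each library. Removal of trends on G + C or length and leaving out the 2 libraries of highest background were chosen after seeing the data.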

Additional observations from a re-analysis of the deposited data

Results flagged for a closer look

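Several rows that the symbol rule left out as pseudogenes had counts above the floor of 3 in all 18 libraries: Rpl9-ps6 at a mean of 86.0 CPM, Rpl10-ps3 at 67.4 CPM and Rpl36a-ps1 at 36.9 CPM. They were picked out because they lie outside the 85 genes described above, and they equal 0.214%, 0.171% and 0.0905% of the counts on those genes. Processed pseudogenes are near-identical copies of their parent genes, so these levels are uncertain. With 3 libraries a group, no library was tested as standing apart from its group, and the interaction of side and occlusion called 0 of 84 genes in edgeR, with 0 at an unadjusted p under 0.05.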

How the results depend on the processing

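In Ezh2 ECKO against MCAO ipsilateral, the 2 called ribosomal protein genes became 4 with RLE factors, 4 with a count minimum of 50 (Rplp0, Rpl7l1, Rps27l and Rpl22l1 in both), 4 with only the groups compared in the fit (Rplp0, Rpl7l1, Rps2 and Rpl14), 5 in DESeq2, 6 without the 2 libraries of highest background (2 lower, and Rps27l, Rpl22l1, Rps27a and Rpl38 higher), 1 with G + C trends removed, 3 with length trends removed (Rpl7l1 lower, Rps27l and Rpl38 higher), 0 with a background covariate, and 0 to 2 when single libraries were left out. Deviations of same-numbered ipsilateral and contralateral libraries correlated at 0.215, 0.250 and −0.074 in sham and 0.120, 0.299 and −0.020 in MCAO cells, not above 0.1 in every pair. The labels do not give the pairing, so the numbers were not taken as pairs. A replicate block gave 0 called genes (adjusted p = 0.0558 for Rpl7l1 and 0.0712 for Rplp0). Over all genes this comparison called 39 higher and 211 lower, 119 and 249 with RLE factors, 745 and 897 in DESeq2, 137 and 348 with only the groups compared, 178 and 335 with the count minimum of 50, 387 and 613 without the 2 libraries, 0 and 12 with the replicate block, 1 and 12 with the covariate, 8 and 21 with G + C trends removed and 13 and 30 with length trends removed. Elsewhere edgeR called 0 ribosomal protein genes and DESeq2 called 1 over both sides, 1 in Hdac2 ECKO against MCAO, 2 in Hdac2 against Ezh2 ECKO, and 4 and 8 for Ezh2 and Hdac2 ECKO against sham. Without the 2 libraries of highest background 1 was called over both sides (Rpl7l1) and 1 in Ezh2 ECKO against sham (Rpl22l1), and over both sides 0 to 1 when single libraries were left out. Medians over the genes moved by less than 1 pooled SD between libraries of a group (0.588) under every alternative, which is wide: in Ezh2 ECKO against MCAO the sign changed (0.47 with the covariate). Uncalled genes that changed sign were Rpl7a in Hdac2 ECKO against sham (−0.11 with the covariate, −0.24 to 0.40 when single libraries were left out), Rpl26 and Rps27l in MCAO against sham ipsilaterally (0.046 and 0.37 with G + C trends removed, −0.54 to 0.31 and −0.16 to 0.25 when single libraries were left out), Rpl22l1 between MCAO sides (−0.37 to 0.0094) and Rpl26 in Hdac2 against Ezh2 ECKO (−0.57 to 0.048), and the cause was not tested. Depth did not limit the shares, but 3 libraries a group limit every test.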
